A study of Mus musculus with 6 samples.

Results

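The genes described here are the autosomal splicing factors and RNA-binding proteins of the mouse hypothalamus whose symbols begin with Srsf, Hnrnp, Snrp, Sf3a, Sf3b, U2af or Rbm and a digit, together with Cirbp. The symbol rule matched 95 of 18228 genes, and 91 remained after the 4 X-linked matches (Hnrnph2, Rbm10, Rbm3 and Rbm41) were left out; no match was Y-linked. They comprise 11 SR protein genes, 20 hnRNP genes, 12 genes of small nuclear ribonucleoprotein (snRNP) proteins, 9 SF3 genes, 3 U2AF genes, 35 RBM genes and Cirbp. The RNA of whole hypothalamus was sequenced in 3 aged mice (22 months) and 3 young mice (12 weeks), drawn from behavioural groups of 5 mice each in a study of cognitive decline with age. All mice were kept on a light/dark cycle with free food and water, all were killed by dislocation under sodium pentobarbital, and all heads were cooled on ice before the tissue was taken and frozen. Each library came from 1 mouse, and the labels give neither strain nor sex. Library totals were 17806490, 18884403 and 17208291 counted reads in aged mice and 17342228, 17745355 and 17913130 in young mice.

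Introns are removed by the spliceosome, in which small nuclear RNAs are carried by Sm and other snRNP proteins, U2AF reads the splice acceptor and the SF3 complexes seat the branch point. SR proteins bind exons and generally favour their inclusion, whereas many hnRNP proteins bind the same transcripts and favour skipping, so the balance of both sets which isoforms a neuron makes. Cirbp is an RNA-binding protein whose transcript is raised by mild cold and follows the daily rhythm of body temperature. The counts used here are totals per gene, so they give the amount of each factor's RNA and not the splicing of any target or the share of productive transcripts of the factor itself, many of which carry poison exons.

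Most of these genes were slightly higher in aged hypothalamus, and few of the differences passed the test. Of the 89 members with enough reads to test, 3 rose, none fell and 86 did not pass (edgeR quasi-likelihood test, Benjamini-Hochberg adjusted p under 0.05). The genes that rose were Srsf7, U2af1 and Hnrnpa2b1, by 24.7%, 23.4% and 17.3% in that order. In this test the share that rose, 3.37% of members, was near the 3.22% of all 14702 tested genes that were higher. Of all genes, 3.64% were lower (6.86% in either direction). The main test had 3 members beside 474 of all genes higher. With DESeq2 9 of 89 members rose beside 589 of the 18228 genes fitted, and with limma-trend 8 beside 616 or 622 of 14702. With total counts alone 9 of 89 rose beside 627 of 14702, and with the length trend removed 7 beside 412. In these settings the share of members that rose was above that of all genes. The absence of falls was the same with DESeq2, limma-voom and limma-trend, and at an unadjusted edgeR p under 0.05 there were 3 lower members against 13.7% of all genes. Without aged replicate 1, aged replicate 3 or young replicate 1, 0 members rose, beside 149, 95 and 142 of all genes. Without young replicate 2 the 1 member that rose was Rbm12b1, named after its values were seen, beside 310 of all genes. None of Srsf7, U2af1 and Hnrnpa2b1 passed there. Without young replicate 3 the 1 member was Srsf7, beside 181 of all genes. Without aged replicate 2, 11 of 89 members rose, beside 901 of 14811 genes, again a larger share of members. Without any other single library the share of members that rose was below that of all genes.

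The direction was more uniform than the calls. Of the 89 tested members, 73 (82.0%) had a log2 fold change of aged over young above 0, where 49.2% of all tested genes did. The median was 0.10 on the log2 scale (7.14%) over members and -0.00 over all tested genes, where TMM scaling holds it near 0. With total counts alone the medians were 0.13 over members and 0.03 over all tested genes. At an unadjusted edgeR p under 0.05, 26 members (29.2%) were higher, beside 12.6% of all genes. The 3 aged libraries lay above the 3 young libraries without overlap for 26 members (29.2%), beside 15.5% of all genes, and below them for 3 members, beside 16.2% of all genes. The remaining 60 members overlapped between the ages. The differences were small: the 95% confidence interval lay within 1.5-fold in either direction for 79 of the 89 members, and fold changes ran from -0.36 for Snrpn to 0.37 for Rbm12 on the log2 scale (Rbm12 is named here after its values were seen).

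The same shift was seen library by library. The summed level of the tested members was 7778, 7944 and 7858 CPM (counts scaled by library total and TMM factor) in the aged libraries and 7375, 7264 and 7430 CPM in the young libraries, so each aged library lay above each young one. As a share of all counted reads the members took 0.779%, 0.810% and 0.791% in aged and 0.726%, 0.713% and 0.746% in young mice. The median deviation of a member from its own mean over the 6 libraries was 0.04, 0.07 and 0.06 on the log2 scale in aged and -0.06, -0.05 and -0.04 in young libraries. The median fold change of every family with more than 1 member was above 0 under each of the 16 alternatives.

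**Figure D1:**
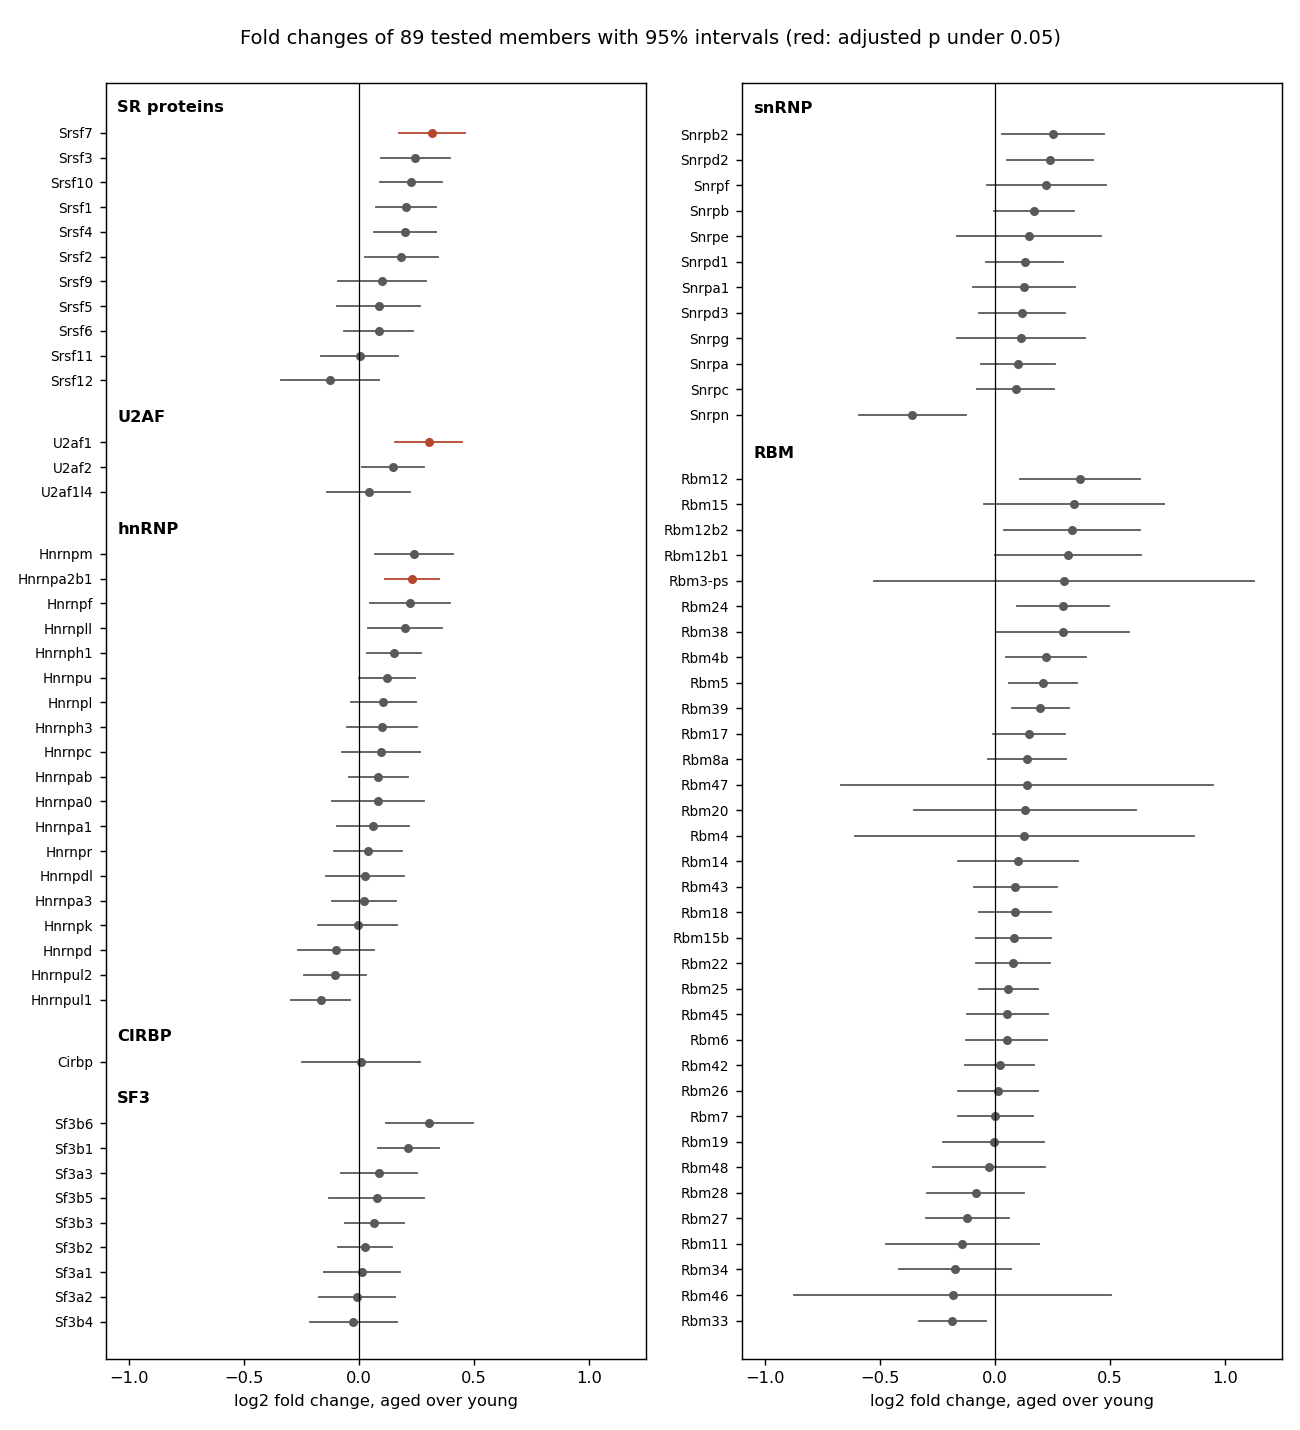
Log2 fold change of aged over young (x axis) for each of the 89 tested members, grouped by family; points are edgeR estimates, lines are 95% intervals and red marks an adjusted p under 0.05. Only Srsf7, U2af1 and Hnrnpa2b1 are red, and 73 of 89 points lie right of 0.

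Both the age groups and the expression of Y-linked genes divided the libraries in the same way. The summed counts of Ddx3y, Kdm5d, Uty and Eif2s3y were 3617, 3540 and 3394 in aged libraries and 32, 24 and 31 in young libraries. The labels give no sex, so the age groups may also differ in sex. Age, sex and anything else behind this Y-linked difference cannot be told apart in any comparison given here. Higher or lower in aged therefore names the group and not age as the cause. In tissue RNA, a change in the number of cells of one type and a change in RNA per cell cannot be told apart either.

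Srsf7 encodes a zinc-knuckle SR protein that binds exonic enhancers and takes part in mRNA export. It stood at 139, 128 and 141 CPM in aged libraries and at 106, 105 and 115 CPM in young libraries. The lowest aged library was above the highest young one. The means were 136 ± 6.82 CPM in aged and 109 ± 5.48 CPM in young mice (SD, n = 3 each), a log2 fold change of 0.32 ± 0.06 (SE; edgeR adjusted p = 0.0232). The call was lost without aged replicate 1 (adjusted p = 0.0836), aged replicate 3 (0.105), young replicate 1 (0.0729) or young replicate 2 (0.0530), at log2 fold changes of 0.31, 0.30, 0.31 and 0.30. Adjusted p over all alternatives ran from 0.00195 to 0.105.

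U2af1 encodes the small subunit of U2AF, which recognises the AG dinucleotide at the end of an intron. Its level was 47.7, 50.6 and 48.2 CPM in aged and 39.9, 38.8 and 40.1 CPM in young libraries, again without overlap. Aged mice averaged 48.8 ± 1.57 CPM and young mice 39.6 ± 0.685 CPM (SD, n = 3 each), a log2 fold change of 0.30 ± 0.06 (SE; edgeR adjusted p = 0.0270). The call was lost without aged replicate 1 (0.0718), aged replicate 3 (0.0903) or any 1 of the young replicates (adjusted p 0.0554 to 0.0707). U2af1 is a short gene model, and with the trend of counts on gene length removed its log2 fold change was 0.20 (adjusted p = 0.104, the largest over the alternatives, the smallest being 0.0135).

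Hnrnpa2b1 encodes an abundant nuclear RNA-binding protein that acts in splicing and in transport of RNA along neuronal processes. It stood at 372, 375 and 381 CPM in aged libraries and at 317, 314 and 330.3 CPM in young libraries, with no overlap and little spread within an age. The means were 376 ± 4.95 CPM in aged and 320.5 ± 8.59 CPM in young mice (SD, n = 3 each), a log2 fold change of 0.23 ± 0.05 (SE; edgeR adjusted p = 0.0318). Without aged replicate 1, aged replicate 3 or any 1 of the young replicates the adjusted p was 0.0613 to 0.132, while the log2 fold change stayed between 0.22 and 0.26. Over all alternatives the adjusted p ran from 0.00516 to 0.132.

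**Figure D2:**
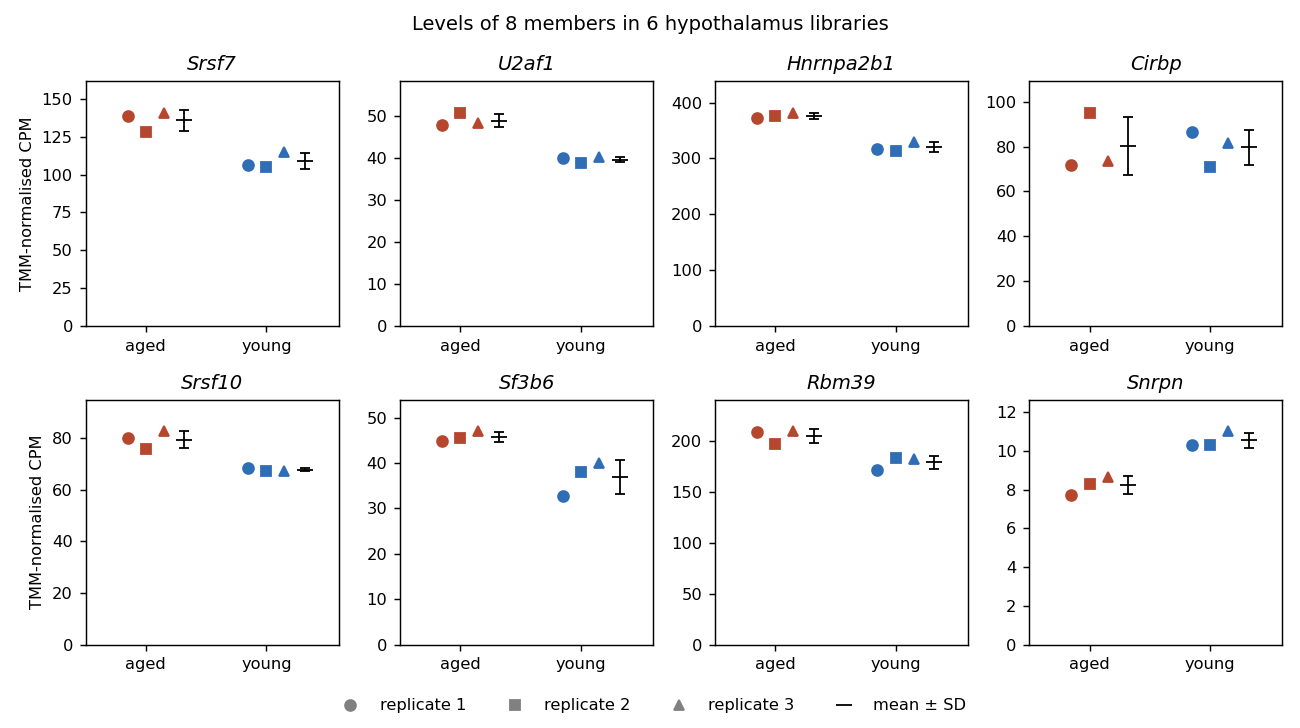
TMM-normalised CPM (y axis, from 0) of 8 members in each aged (left) and young (right) library; symbols mark replicates and black bars the mean ± SD of 3 libraries. Aged and young libraries do not overlap for Srsf7, U2af1, Hnrnpa2b1, Srsf10, Sf3b6, Rbm39 (higher in aged) and Snrpn (lower in aged), and they overlap for Cirbp, where aged replicate 2 is highest at 95.01 CPM.

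The 250 bases before the first listed transcription start of these genes and of Cirbp are shown so that their sequence features can be read beside the values. They are RefSeq sequences on build GRCm38.p6, printed on the strand of the gene; the counts were made on GRCm39, so the coordinates are those of the older build. Capitals mark TCCCCGCC, an octamer described upstream of Cirbp as a mild cold response element, and CCAAT or its complement ATTGG. The windows are chr17:80207306-80207555 (minus strand) for Srsf7, chr17:31658765-31659014 (minus strand) for U2af1, chr6:51469895-51470144 (minus strand) for Hnrnpa2b1 and chr10:80167589-80167838 (plus strand) for Cirbp.
Srsf7: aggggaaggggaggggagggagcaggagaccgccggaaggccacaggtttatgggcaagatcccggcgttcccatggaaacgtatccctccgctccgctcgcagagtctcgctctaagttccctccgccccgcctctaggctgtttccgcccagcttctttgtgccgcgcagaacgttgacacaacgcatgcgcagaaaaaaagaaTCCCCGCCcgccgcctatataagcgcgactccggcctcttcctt
U2af1: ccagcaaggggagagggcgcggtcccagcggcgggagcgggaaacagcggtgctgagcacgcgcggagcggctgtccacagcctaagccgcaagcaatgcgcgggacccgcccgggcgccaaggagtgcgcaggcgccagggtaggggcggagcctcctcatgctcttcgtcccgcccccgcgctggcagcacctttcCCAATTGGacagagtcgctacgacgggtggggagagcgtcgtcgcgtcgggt
Hnrnpa2b1: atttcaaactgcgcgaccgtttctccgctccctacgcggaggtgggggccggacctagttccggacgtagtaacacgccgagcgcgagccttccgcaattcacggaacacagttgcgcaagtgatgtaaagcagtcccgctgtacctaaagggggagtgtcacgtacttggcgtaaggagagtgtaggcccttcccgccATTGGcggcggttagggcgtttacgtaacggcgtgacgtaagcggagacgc
Cirbp: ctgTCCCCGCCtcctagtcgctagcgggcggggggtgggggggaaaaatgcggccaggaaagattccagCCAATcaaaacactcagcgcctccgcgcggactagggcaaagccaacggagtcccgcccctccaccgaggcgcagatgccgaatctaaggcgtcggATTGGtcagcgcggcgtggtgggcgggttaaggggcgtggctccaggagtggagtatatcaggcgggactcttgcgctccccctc
The octamer begins at position -44 from the start in Srsf7 and at -247 in Cirbp, and it is not in the U2af1 or Hnrnpa2b1 window. U2af1 holds an overlapping pair of CCAAT matches, 1 on each strand, Hnrnpa2b1 holds 1 and Cirbp holds 2. GC content was 61.6% for Srsf7, 71.6% for U2af1, 59.6% for Hnrnpa2b1 and 65.6% for Cirbp.

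RefSeq windows were found for 76 of the 91 members and were read on both strands. The octamer TCCCCGCC was in 4 of them (5.26%), against 4.70% of all 27025 windows; beside Srsf7 and Cirbp these were Hnrnpa0 and Rbm19, named here only for this match. CCAAT was in 35 member windows (46.1%) and 34.5% of all windows, the GC box GGGCGG in 42 (55.3%) and 32.9%, the E-box CACGTG in 6 (7.89%) and 6.05%, and the heat shock unit GAANNTTC in 5 (6.58%) and 6.78%. The 27025 windows include genes outside the 14702 tested, so members and all windows were not matched for expression or GC content. A match is a string in the window and was not tested as a binding site.

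Among the SR protein genes, 1 of 11 rose (Srsf7), none fell and 10 had a log2 fold change above 0, with a median of 0.19. The 1 gene made up 9.09% of the family, beside 3.22% of all genes. Aged and young libraries did not overlap for 6 of the 11 (54.5%), all higher in aged. Of all tested genes, 15.5% were higher and 16.2% lower without overlap. Srsf10, a factor that represses splicing when dephosphorylated by heat, stood at 79.9, 75.7 and 82.5 CPM in aged and 68.5, 67.4 and 67.3 CPM in young libraries. Its log2 fold change was 0.23 ± 0.06 (SE; edgeR adjusted p = 0.0509). Srsf3, the smallest SR protein, had 99.9, 104 and 111 CPM in aged and 84.7, 93.3 and 87.4 CPM in young libraries (log2 fold change 0.25, adjusted p = 0.0547). Both missed the threshold in the main test and passed with DESeq2 and limma-trend, at log2 fold changes of 0.23 to 0.27. With limma-voom neither passed (adjusted p = 0.0555 for Srsf10 and 0.0597 for Srsf3). Each passed under 6 of the 16 alternatives.

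The other SR genes without overlap were Srsf1, Srsf4 and Srsf2, of which the first 2 are named after their values were seen. Srsf1, the founding SR protein, had 221, 219 and 227 CPM in aged and 199, 181 and 199 CPM in young libraries (log2 fold change 0.20, edgeR adjusted p = 0.0642). Srsf4 had a log2 fold change of 0.20 (adjusted p = 0.0720). Srsf2, which overlaps Mettl23 and Mfsd11 on the other strand, had 177, 187 and 182 CPM in aged and 171, 144 and 166 CPM in young libraries (0.19, adjusted p = 0.137). The family median per library was 0.05, 0.11 and 0.10 on the log2 scale in aged and -0.05, -0.16 and -0.04 in young libraries, so young replicate 2 was lowest; without it the family median fold change was 0.12.

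Levels between SR genes were compared as FPKM, which is scaled to gene length. Srsf5 led with a mean of 135 FPKM over the 6 libraries, 31.1% of the family's summed FPKM, and Srsf2 and Srsf7 followed at 48.3 and 44.6 FPKM. The most abundant gene did not pass: Srsf5 had 223, 254 and 217 CPM in aged and 226, 197 and 230.0 CPM in young libraries, with overlap and a log2 fold change of 0.09 (95% interval -0.09 to 0.27).

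**Figure D3:**
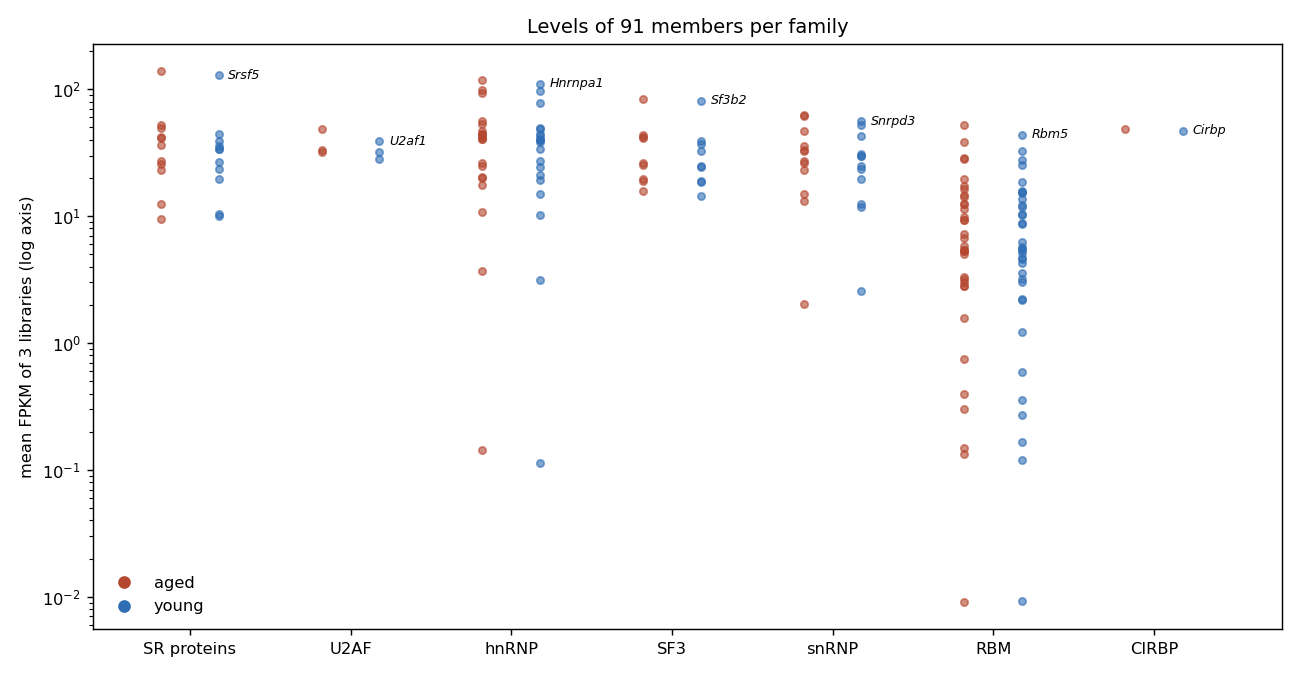
Mean FPKM of 3 libraries (log axis) for each of the 91 members, by family, aged in red left of young in blue; the gene with the highest mean over 6 libraries is labelled in each family. Srsf5 at 135, Hnrnpa1 at 114 and Hnrnpk at 97.7 FPKM lead, and members within a family range over more than 1 order of magnitude in the larger families.

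The U2AF genes were all above 0, with a median log2 fold change of 0.15. U2af2, the large subunit that binds the polypyrimidine tract beside U2af1's AG, had 206, 188 and 199 CPM in aged and 175, 173 and 187 CPM in young libraries. The lowest aged value was just above the highest young value, and the log2 fold change was 0.15 (95% interval 0.01 to 0.28; edgeR adjusted p = 0.153). U2af1l4, a paralog of U2af1, had 29.3, 28.4 and 28.3 CPM in aged and 28.5, 25.3 and 29.5 CPM in young libraries, with overlap (0.04, adjusted p = 0.778). On the FPKM scale U2af1 held 41.3% of the family, at a mean of 44.0 FPKM.

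Of the 9 SF3 genes, none passed in the main edgeR test or with limma-voom. At an unadjusted edgeR p under 0.05, 2 were higher (22.2%, beside 12.6% of all genes). The same 2 passed with DESeq2, with limma-trend and with edgeR on total counts alone. Both were subunits of SF3b, the complex that holds the branch point. Sf3b6, which contacts the branch-point adenosine, had 44.8, 45.4 and 47.0 CPM in aged and 32.8, 38.0 and 40.1 CPM in young libraries (log2 fold change 0.31 ± 0.08 SE, edgeR adjusted p = 0.0569). Sf3b1, the scaffold of SF3b, had 325, 298 and 335 CPM in aged and 278, 274 and 274 CPM in young libraries (0.22 ± 0.06 SE, adjusted p = 0.0587). For both genes every aged library was above every young one. Without aged replicate 2, Sf3b1 passed at a log2 fold change of 0.27 (edgeR adjusted p = 0.0149), and without any other single library it did not (0.101 to 0.215). Sf3b6 lay at 0.0618 to 0.181 without single libraries and never passed there. With the length trend removed, Sf3b1 passed (0.28, adjusted p = 0.0258) and Sf3b6 did not (0.21, adjusted p = 0.127). With the replicate number as a block, Sf3b6 passed and Sf3b1 did not.

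The other SF3 subunits lay close to 0. Sf3b2, the most abundant at a mean of 82.8 FPKM (27.2% of the family), had 264, 276 and 270.3 CPM in aged and 269, 256 and 270.2 CPM in young libraries. The ages overlapped, and the log2 fold change was 0.03 with a 95% interval of -0.09 to 0.15. Sf3b5 (0.08) and Sf3a3 (0.09), small subunits of SF3b and SF3a, also overlapped between the ages. The family median was 0.07.

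Of the 12 snRNP protein genes, none passed with edgeR, DESeq2, limma-voom or limma-trend. At an unadjusted edgeR p under 0.05, 2 were higher (16.7%, beside 12.6% of all genes) and 1 was lower, beside 13.7% of all genes. The median log2 fold change was 0.13, and 11 of 12 were above 0. Snrpd2, a core Sm ring protein, had 45.8, 48.3 and 44.6 CPM in aged and 35.0, 40.6 and 41.9 CPM in young libraries, without overlap (0.24, adjusted p = 0.107). Snrpb2, a protein that sits on U2 RNA, had 18.2, 19.7 and 17.1 CPM in aged and 13.8, 16.0 and 16.4 CPM in young libraries, also without overlap (0.25, adjusted p = 0.141). Snrpd3, the most abundant at 59.1 FPKM, overlapped between the ages (0.12, adjusted p = 0.407). These are short gene models, with a median length of 846.5 bases against 3693 over all tested genes, and with the length trend removed the family median was 0.02 with 7 of 12 above 0.

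Snrpn ran the other way. It encodes SmN, the Sm protein that takes the place of SmB in neurons, and it is expressed from the paternal chromosome. Snrpn stood at 7.74, 8.31 and 8.65 CPM in aged libraries and at 10.3, 10.3 and 11.01 CPM in young libraries. The ages did not overlap, and the log2 fold change was -0.36 ± 0.10 (SE; 95% interval -0.59 to -0.12; edgeR adjusted p = 0.0682). It passed under none of the 16 alternatives run (adjusted p 0.0691 to 0.205). It was the lowest snRNP gene by level at a mean of 2.29 FPKM. Snrpn overlaps Snurf and Gm38393 on the same strand in the GRCm38 annotation, so reads shared with them could have been assigned elsewhere or dropped. Its ubiquitous counterpart Snrpb, named after its values were seen, had 46.3, 53.1 and 49.6 CPM in aged and 46.8, 44.1 and 41.7 CPM in young libraries, with overlap (0.17, adjusted p = 0.1999).

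**Figure D4:**
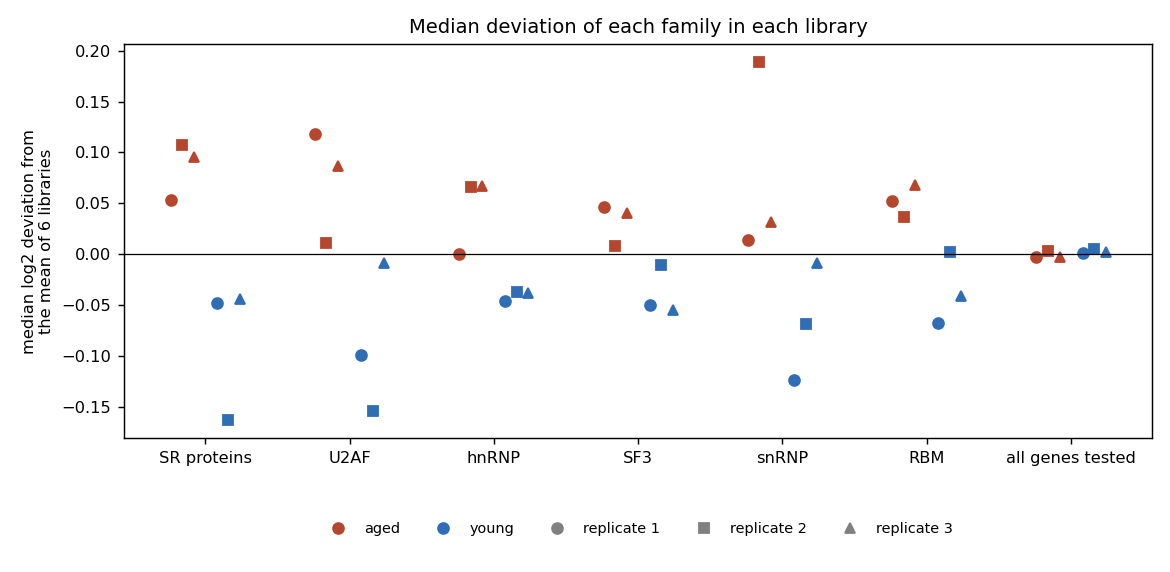
Median log2 deviation of the tested members of each family from their means over 6 libraries (y axis), for each aged (red, left) and young (blue, right) library, with all tested genes at the right end; symbols mark replicates. Aged libraries lie above young ones in each of the 6 families plotted. The medians over all genes lie within 0.01 of 0, where centring and TMM scaling place them.

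Among the hnRNP genes, 19 of 20 were tested (Hnrnpa1l2-ps2, a pseudogene, had at most 4 counts in a library), 1 rose (Hnrnpa2b1), none fell and the median log2 fold change was 0.08. A further 6 had an unadjusted p under 0.05 without passing, 5 of them higher. With Hnrnpa2b1, 31.6% of the family was higher at that threshold, beside 12.6% of all genes. Hnrnpm, a repressor of exon inclusion that overlaps March2 on the same strand, had 106, 91.5 and 107 CPM in aged and 86.5, 81.5 and 89.9 CPM in young libraries (0.24, edgeR adjusted p = 0.0862). It passed without aged replicate 2, at a log2 fold change of 0.32 (edgeR adjusted p = 0.0189), and with the replicate number as a block (0.0471). Without any other single library it did not pass (adjusted p 0.125 to 0.262). Hnrnpul1, a relative of hnRNP U that acts in transcription and DNA repair, was the one lower gene of these: it had 129, 120.5 and 124 CPM in aged and 144, 136 and 138 CPM in young libraries, without overlap (-0.17, adjusted p = 0.105).

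Hnrnpa1 and Hnrnpk, the most abundant hnRNP genes, did not pass. Hnrnpa1, the closest relative of Hnrnpa2b1 and a repressor of exon inclusion, led at a mean of 114 FPKM and had 215, 254 and 217 CPM in aged and 218, 221 and 219 CPM in young libraries. Hnrnpk, which binds C-rich RNA, had a mean of 97.7 FPKM and stood at 312, 373 and 314 CPM in aged and 321, 348 and 333 CPM in young libraries. In both genes aged replicate 2 was above all other libraries and the other aged libraries were below the young ones. The log2 fold changes were 0.06 (95% interval -0.10 to 0.22) for Hnrnpa1 and -0.00 (-0.18 to 0.17) for Hnrnpk; without aged replicate 2 that of Hnrnpa1 was -0.01. The difference between these genes and Hnrnpa2b1 in their response was not tested.

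Of the 34 tested RBM genes, none passed in the main edgeR test or with limma-voom and 1, Rbm39, passed with DESeq2 and limma-trend. With edgeR, Rbm39 also passed on total counts alone and with the length trend removed, and Rbm5 with the replicate number as a block. At an unadjusted edgeR p under 0.05, 8 were higher (23.5%, beside 12.6% of all genes) and 1 was lower, beside 13.7% of all genes. Rbm44, the remaining RBM gene, had at most 1 count in a library. The family median log2 fold change was 0.09, with 26 of 34 above 0. Without aged replicate 2, 4 RBM genes passed (Rbm5, Rbm12, Rbm24 and Rbm39), and without young replicate 2 Rbm12b1 alone passed. Without any other single library none passed.

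Rbm39, a U2AF-related splicing factor and transcriptional coactivator, had 209, 197 and 209 CPM in aged and 172, 183 and 182 CPM in young libraries (log2 fold change 0.20, edgeR adjusted p = 0.0635). Rbm5, which regulates the splicing of apoptosis genes, was the most abundant RBM gene at a mean of 47.9 FPKM. It had 180.0, 163 and 182 CPM in aged and 155, 142 and 156 CPM in young libraries (0.21, adjusted p = 0.0832). In both genes the ages did not overlap.

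Rbm24, a splicing regulator best known from muscle, had 18.5, 17.6 and 19.9 CPM in aged and 14.8, 16.3 and 14.5 CPM in young libraries, again without overlap (0.30, adjusted p = 0.0757). The one lower gene at an unadjusted p under 0.05 was Rbm33, named after its values were seen, with 141, 139.7 and 136 CPM in aged and 167, 146 and 161 CPM in young libraries (-0.19, adjusted p = 0.108).

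Cirbp, the cold-inducible member, showed no detectable difference. It had 71.9, 95.01 and 73.8 CPM in aged libraries and 86.4, 71.0 and 81.7 CPM in young libraries. Aged replicate 2 was the highest of the 6, the other aged libraries were among the lowest 3, and the ages overlapped. The means were 80.2 ± 12.8 CPM in aged and 79.7 ± 7.88 CPM in young mice (SD, n = 3 each), and the log2 fold change was 0.01 ± 0.11 (SE; 95% interval -0.24 to 0.27; edgeR adjusted p = 0.968). Without aged replicate 2 the log2 fold change was -0.12. The X-linked paralog Rbm3, the other classical cold-inducible gene of this group, was outside the rule.

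Several heat shock genes differed by more than any member did. Of 11 heat shock genes, 5 rose with edgeR and all 11 had a fold change above 0: Dnajb1 by 1.201, Hspb1 by 2.08, Hspa1a by 2.95, Hspa1b by 3.95 and Bag3 by 1.18 on the log2 scale; Hspa1a and Hspa1b are near-identical, so reads could have been divided between them. Bag3, the fifth by adjusted p, is named as the remaining call after its values were seen. DESeq2 called 7, adding Hsph1 and Hspa8, as did edgeR without aged replicate 2; without any other single library 4 passed and Bag3 did not. The summed level of the 11 genes was 4374, 3710 and 4786 CPM in aged libraries and 3310.2, 3575 and 3479 CPM in young libraries. Aged replicate 2 had the lowest heat shock sum of the aged libraries. Among the aged libraries it held the highest value of 36 members (40.4%), beside 39.6% of all genes, and the lowest value of 32 members. Of 6 cold shock domain genes, none passed in the main edgeR test or with DESeq2, limma-voom or limma-trend, and 1 was higher at an unadjusted edgeR p under 0.05: Ybx1, an mRNA-packaging protein, at 101, 88.5 and 104 CPM in aged and 87.8, 88.4 and 81.8 CPM in young libraries (0.18, adjusted p = 0.151). Ybx1 passed with edgeR without aged replicate 2. The part of the heat shock difference in the values of the splicing factors was not tested.

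The kinases that phosphorylate SR proteins and the carrier that imports them formed a list of 9 genes, of which 2 rose and none fell (1 was lower at an unadjusted edgeR p under 0.05, and none with DESeq2). The 2 made up 22.2% of the list, beside 3.22% of all genes. Clk1, a nuclear kinase that phosphorylates the arginine-serine domains of SR proteins, had 112, 119 and 121 CPM in aged and 91.8, 92.1 and 92.6 CPM in young libraries. The ages were far apart beside the spread within them, and the log2 fold change was 0.35 ± 0.06 (SE; edgeR adjusted p = 0.0123). Its paralog Clk3 had 100.1, 88.7 and 106 CPM in aged and 83.2, 73.0 and 78.7 CPM in young libraries (0.33 ± 0.08 SE, adjusted p = 0.0425). Prpf4b (0.19, adjusted p = 0.0940), a kinase of the tri-snRNP, and the cytoplasmic SR kinase Srpk2 (-0.15, adjusted p = 0.138) did not pass. Without aged replicate 3 neither kinase passed, without aged replicate 2 there were 3 calls, and without any other library Clk1 alone passed.

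Of 59 further spliceosome genes, 2 rose and none fell (3 were lower at an unadjusted edgeR p under 0.05, and none with DESeq2), with a median log2 fold change of 0.10 and 44 above 0. The share that rose, 3.39%, was near the 3.22% of all genes. At an unadjusted edgeR p under 0.05, 17 were higher (28.8%, beside 12.6% of all genes), and 13.7% of all genes were lower. Snrnp48, a protein of the minor spliceosome, had 18.6, 15.3 and 19.4 CPM in aged and 13.6, 11.1 and 13.0 CPM in young libraries (0.49, edgeR adjusted p = 0.0393). Lsm4, of the ring that holds U6 RNA, had 31.8, 27.6 and 29.7 CPM in aged and 22.7, 24.5 and 24.5 CPM in young libraries (0.31, adjusted p = 0.0496). Lsm4 did not pass with DESeq2, limma-voom, the replicate number as a block or the length trend removed, where Snrnp48 passed. The helicases Dhx8 (-0.21, adjusted p = 0.0784) and Dhx16 (0.26, adjusted p = 0.0810) did not pass. The count was 5 without aged replicate 2, 1 without young replicate 2 and 0 without any other library. The 1 was Snrnp25, named after its values were seen. Snrnp48 and Lsm4 both lost their calls without any 1 library other than aged replicate 2.

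Of 48 other splicing regulators, 46 were tested, 1 rose and none fell with edgeR (5 were lower at an unadjusted p under 0.05, and 1 with DESeq2), and the median log2 fold change was 0.01. The share that rose, 2.17%, was below the 3.22% of all genes. The gene that rose was Tra2b, an SR-like activator of exon inclusion, at 92.4, 87.0 and 88.4 CPM in aged and 67.9, 77.2 and 72.0 CPM in young libraries (0.30, edgeR adjusted p = 0.0296). Its paralog Tra2a (0.36, adjusted p = 0.0648) and Ptbp1, the polypyrimidine tract binding protein of non-neuronal cells (0.59, adjusted p = 0.0655), did not pass with edgeR or limma-voom. With DESeq2 there were 3 higher calls (Tra2b, Tra2a and Ptbp1) and 1 lower call (Luc7l2), and with the replicate number as a block Tra2b, Tra2a and Ptbp1 passed. Luc7l2, a U1 snRNP-associated protein, had a log2 fold change of -0.21 (adjusted p = 0.0533). In Ptbp1 the aged values were 82.0, 54.9 and 96.1 CPM, against 56.1, 48.7 and 50.1 CPM in young libraries, so aged replicate 2 overlapped the young range. Without aged replicate 2 there were 4 higher and 2 lower calls, without young replicate 2 there was 1, and without any other library there was none.

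Of 15 genes of the exon junction complex and nonsense-mediated decay, 1 rose and none fell (0 were lower at an unadjusted edgeR p under 0.05 or with DESeq2). The 1 gene made up 6.67% of the list, beside 3.22% of all genes. Magoh, a core subunit of the exon junction complex, had 29.2, 23.3 and 30.2 CPM in aged and 19.8, 19.6 and 21.1 CPM in young libraries (0.45, edgeR adjusted p = 0.0366). The call was lost with the length trend removed and without any 1 library except aged replicate 2, without which 2 genes passed. The list median was 0.03.

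Markers of the tissue and of its cell types were read beside these values, and no tested marker was at 0 in a library. With edgeR, of 8 hypothalamic neuropeptide genes Avp was higher and Hcrt lower in aged mice. Hcrt did not pass without aged replicate 1 or aged replicate 3. At an unadjusted edgeR p under 0.05, 4 of the 8 were higher and 3 lower, beside 12.6% and 13.7% of all genes. Of 5 markers each, Aqp4 of astrocytes and Cldn5 and Kdr of endothelial cells were lower, and of microglia C1qa was higher and P2ry12 lower. Without single libraries Avp, Aqp4, Cldn5 and C1qa passed each time. Kdr did not pass without aged replicate 1, aged replicate 3, young replicate 1 or young replicate 3. P2ry12 lost its call when any 1 library other than aged replicate 2 was left out, and it passed neither with total counts alone nor with limma-trend. None of 5 neuronal, 5 oligodendrocyte or 4 tested choroid plexus markers passed with edgeR; at an unadjusted p under 0.05 there were 0 neuronal, 1 oligodendrocyte (lower) and 1 choroid plexus marker (higher). Mog, of oligodendrocytes, was lower with DESeq2, with the length trend removed and without aged replicate 2, where Snap25 of neurons was also lower and Clic6 of choroid plexus higher. Gal was higher with DESeq2, limma-voom and the replicate block and without young replicate 3. Agrp was higher with DESeq2 and the block and without young replicate 2. Gja1 was lower with DESeq2, Cx3cr1 with the block, and both without aged replicate 2. Gfap was higher with the block, and Tmem119 with limma-trend and total counts alone. Summed marker levels of neurons were 3002 to 3353 CPM in aged and 3229 to 3790 CPM in young libraries. Those of astrocytes were 1868 to 2538 CPM in aged and 2517 to 2609 CPM in young libraries, with aged replicate 2 lowest. Oligodendrocyte markers summed to 5068 to 5423 CPM in aged and 4218 to 5481 CPM in young libraries, and endothelial markers to 146 to 157 CPM in aged and 163 to 199.7 CPM in young libraries. Microglial markers summed to 193 to 222 CPM in aged and 199 to 207 CPM in young libraries. The neuropeptide genes summed to 1234 to 1335 CPM in aged and 1253 to 1430 CPM in young libraries. Choroid plexus markers summed to 37.2 to 50.8 CPM in aged and 29.2 to 58.5 CPM in young libraries. The part of these markers in the differences of the splicing factors was not tested.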

How the data were processed

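Per the labels' protocols, hypothalamus RNA was isolated with a mirVana kit, and TruSeq Stranded mRNA libraries, which hold polyadenylated RNA, were sequenced. The authors deposited whole-number read counts per gene, not normalized, and an FPKM table of the same genes. The deposited FPKM equals counts over gene length and library total for 18228 of 18228 genes (relative tolerance 1e-06). The submitters' processing notes name Trimmomatic, HISAT2, Cufflinks, HTSeq and DESeq, with GRCm39 as genome build. How strand and multi-mapped reads were handled, and with which annotation release, is not given in the sources used here, so values of paralogs, of genes with processed pseudogenes and of overlapping genes are uncertain. In a GRCm38 annotation, 48 of the 91 members overlap another gene, 22 of them on the same strand, and Srsf7, U2af1, Hnrnpa2b1 and Cirbp overlap none. Chromosomes were assigned by symbol from RefSeq genes, then from that annotation and last from RefSeq synonyms, for 18116 of 18228 genes (99.4%).

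In R 4.3.3, counts were tested with the quasi-likelihood test of edgeR 4.0.16, aged against young, with no covariate, TMM factors (0.981 to 1.02) and filterByExpr (minimum count 10, minimum total count 15). This kept 14702 genes with 99.9% of the counts, at a biological coefficient of variation of 8.52%. The threshold was a Benjamini-Hochberg adjusted p of 0.05 over all genes tested, and 474 were higher and 535 lower in aged mice. Fold changes are aged over young on the log2 scale, and levels between genes are compared as FPKM only. Between replicates, chi-square per degree of freedom was 4.04 to 12.1, above sampling noise. The fits were tested on simulated data. Alternatives were RLE factors, total counts alone, no filter, DESeq2 1.42.0, limma-voom and limma-trend (limma 3.58.1) on log2 FPKM with a pseudocount of 1 or 0.1, the replicate number as a block, each library left out, no X- or Y-linked genes, and the loess trend on gene length removed (span 0.5).

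The members and gene lists were chosen with earlier results of these data known. Named members were those that passed, the 3 of smallest adjusted p and the 2 of highest FPKM per family, and Cirbp, with up to 4 genes of smallest adjusted p per list; other names are said to be chosen after their values were seen. Lists are described by counts and medians, with no test of a list.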

Additional observations from a re-analysis of the deposited data

How the results depend on the processing

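The count of members that rose was 3 and was also 3 with RLE factors, without a low-count filter, with limma-voom and without X- and Y-linked genes. It was 9 with total counts alone and with DESeq2, 8 with limma-trend on either pseudocount, 7 with the length trend removed, and 0 to 11 without single libraries; no alternative called a member lower. In all, 15 members passed under at least 1 alternative. Replicate numbers do not pair the mice by the labels, and deviations of same-numbered libraries correlated at 0.10, 0.04 and -0.14 (1 of 3 aged libraries matched its own number best). With the replicate number as a block, 7 members rose, beside 523 of all genes. The counts over all genes, 474 higher and 535 lower, were 95 to 901 and 55 to 732 without single libraries; the lower count was 293 and 303 with limma-trend at a pseudocount of 1 and 0.1 FPKM, and 346 with the length trend removed. The members' median log2 fold change of 0.10 was 0.13 with total counts alone, 0.12 at a pseudocount of 0.1 FPKM, 0.0814 with the length trend removed and 0.0909 to 0.13 without single libraries. The count of members above 0, 73 of 89, was 64 with the length trend removed (7381 of 14702 over all genes). It was 78 with total counts alone (8187 of 14702 over all genes) and 68 to 73 without single libraries. Of 26 named members, 20 kept their direction throughout. With the length trend removed, Cirbp was at -0.0566, Sf3b5 at -0.0517, Snrpd3 at -0.0324 and U2af1l4 at -0.0754. Without single libraries, Cirbp ran from -0.1195 to 0.0909 (below 0 without aged replicate 2 or young replicate 2), Hnrnpa1 from -0.0093 to 0.1115 (below 0 without aged replicate 2), U2af1l4 from -0.0137 to 0.0971 (below 0 without young replicate 2) and Hnrnpk from -0.0823 to 0.0485 (above 0 without aged replicate 1, aged replicate 3, young replicate 2 or young replicate 3). Hnrnpk was also above 0 with total counts alone (0.0259), without a filter (0.0033) and with limma-trend (0.0206 and 0.0208). The cause of these changes was not tested. With 3 mice per age, an exact permutation test of 1 gene could not give a p below 0.1.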
